A study of Homo sapiens with 8 samples.

Results

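Most human protein-coding genes are interrupted by introns. The genes described here are the exception, as each of their annotated protein-coding transcripts consists of 1 exon. They were taken from GENCODE release 44 on hg38, leaving out histones (symbols starting H1-, H2A, H2B, H3 or H4), mitochondrial genes and JUN, JUND, IER2, HSPA1A and HSPA1B. Of 1028 such genes, 92 were set aside by symbol and 936 remained. Each was looked up in the short-read gene table by Ensembl identifier or, where the gene had been assembled from reads, by a shared span on the same strand (at least 0.5 as intersection over union). A row was found for 854 genes. Of these, 252 reached 10 normalized counts in 3 or more of the 6 short-read libraries, among 26066 genes tested in all. Their RNA in chromatin was compared with that in nucleoplasm.

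The RNA came from nuclei of HAP1, a near-haploid human line derived from a chronic myeloid leukemia line, and the labels name no treatment. Nuclei were washed with urea and detergent, and the pellet was kept as the chromatin fraction and the supernatant as the nucleoplasm fraction. Short reads were made from both fractions of 3 independent cultures (3 libraries a fraction). Long reads were made from the chromatin fraction alone (2 libraries). The p-values therefore measure the spread between 3 cultures of 1 line.

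Intronless mRNAs are made without splicing, so they lack the protein complexes that splicing leaves on RNA and that aid its export. Some of these genes belong to old single-exon families, such as the SOX factors and the frizzled receptors. Others are retrocopies, which arose when the spliced RNA of another gene was copied back into the genome and which still resemble that gene. Still others lie within an intron of a larger gene, where precursor RNA of that gene runs over them on the same strand.

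Reads recovered from the deposited values numbered 38895027 to 43804918 per chromatin library and 75737601 to 79523938 per nucleoplasm library. The 252 genes took 0.394% ± 0.00285 of the gene reads in chromatin and 0.368% ± 0.00817 in nucleoplasm (SD, n = 3). As a check of the labels, the nuclear noncoding RNAs MALAT1 and PVT1 were higher in chromatin (log2 fold change 3.09 and 3.11) and the spliced mRNAs GAPDH and B2M in nucleoplasm (-2.35 and -2.11). Of 6 blood lineage genes, PTPRC, SPI1, GATA1 and MPO were at 0 in all 6 libraries, and CD34 and CD33 reached at most 3.60 and 4.39 normalized counts, so defining blood markers were absent or near 0. Over the 252 genes, Pearson's r of log2 values between replicates was 0.976 to 0.994 in chromatin and 0.989 to 0.994 in nucleoplasm.

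All differences below are log2 fold changes of chromatin over nucleoplasm, fitted on log2(normalized count + 1), which understates the change of low genes. They are relative to the other RNAs of the same nuclei. Scaling to equal totals of the ERCC standards, synthetic RNAs added to each fraction, moved the median of all genes tested from -0.02 to -1.33, and scaling to equal total counts moved it to 0.44. A positive value smaller than the first shift thus turns negative with equal ERCC totals, and a negative value smaller than the second turns positive with equal total counts. In these bulk samples, less RNA per cell and fewer cells with the RNA cannot be told apart.

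The genes were found on both sides. At over 4-fold and an adjusted p under 0.05 (limma, adjusted over all 26066 genes), 38 of the 252 were higher in chromatin and 15 were higher in nucleoplasm. These were 15.1% and 5.95%, beside 21.2% and 8.47% of all genes tested and beside 3.72% and 5.50% of 12034 protein-coding rows with introns. At any fold, 86 were higher in chromatin (34.1%, against 44.2% of all genes), 125 were higher in nucleoplasm (49.6%, against 45.2%) and 41 did not pass the test. In 212 of the 252 genes the values of the fractions did not overlap (84.1%, against 90.6% of all genes). The median log2 fold change was -0.24, between that of all genes (-0.02) and that of the intron-containing rows (-0.39).

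Which genes could pass the filter bears on these counts. At least 10 normalized counts were present in all 6 libraries for 203 genes, while 34 passed through chromatin alone, 6 through nucleoplasm alone and 9 lay between. The 34 had to differ, and they held 28 of the 38 genes called in chromatin. Among the 203, 8 were called in chromatin (3.94%, against 11.4% of 20735 such genes) and 11 in nucleoplasm (5.42%, against 8.7%). Intron-containing rows present in all 6 libraries had 2.56% and 5.42%. The fractions did not overlap in 167 of the 203 (82.3%, against 90.3%). The median of the 203 genes was -0.47.

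**Figure D1:**
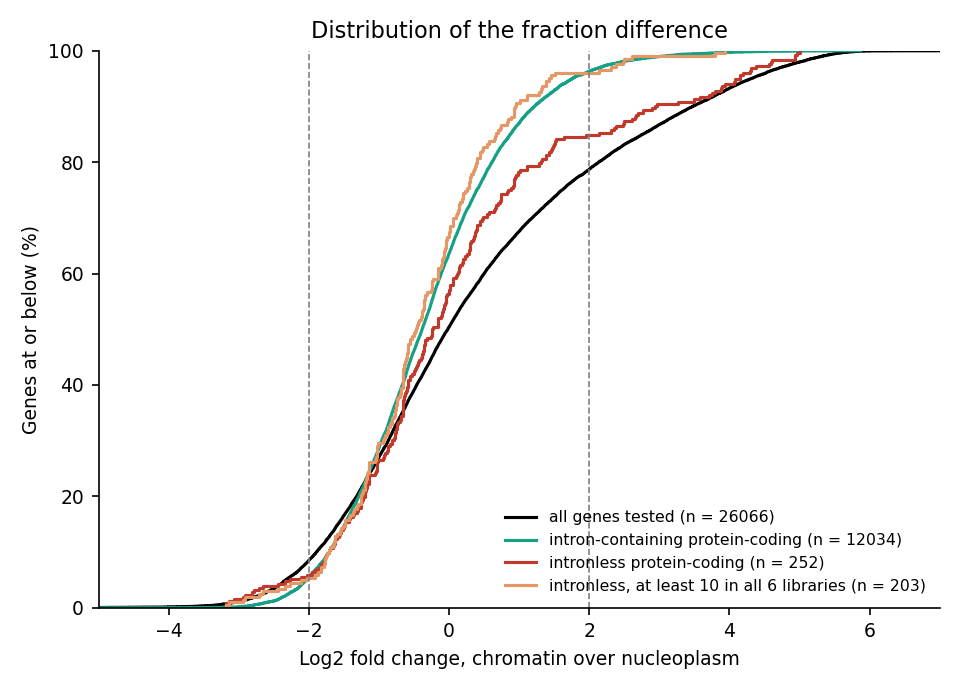
Cumulative share of genes (vertical axis, percent) by log2 fold change of chromatin over nucleoplasm (horizontal axis), for all genes tested, intron-containing protein-coding genes, the 252 intronless genes and the 203 of them with at least 10 normalized counts in all 6 libraries; dashed lines mark 4-fold. The curve of the 252 lies right of that of the intron-containing genes on the chromatin side, and the curve of the 203 runs close to it.

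The remaining genes of the class were not tested. Of the 936, 82 had no matching row, 379 were at 0 in all 6 libraries and 223 were above 0 but under the filter. They included 183 of 187 olfactory receptors with a row and 12 of 21 bitter taste receptors. Of 120 secreted and keratin-associated proteins, 1 passed.

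Position and sequence set the 252 genes into 4 sets. Inside an intron of another gene on the same strand lay 33 genes. A further 26 were close copies, with at least 300 bases at 90% identity or more to a spliced transcript of another gene. This rule goes by sequence alone, and whether each gene arose as a retrocopy was not tested. It also took in POU3F1, matched to POU3F3 over 465 bases, and HNRNPCL4, matched to HNRNPCL3 at 99.9% identity. Another 19 had under 80% of their 50-base windows (the read length) found once in the genome, and 174 were in none of these sets. The nested genes had a median of 2.65, with 17 called in chromatin and 1 in nucleoplasm, but 15 of them had passed the filter through chromatin alone. Of the 17 nested genes with at least 10 normalized counts in all 6 libraries, 2 were called in chromatin and 1 in nucleoplasm, with a median of -0.05. The copies had a median of -1.93, with 1 and 12 called, and the 20 copies present in all 6 libraries had -1.78, with 8 called in nucleoplasm. The repeated genes had 0.91 (6 called in chromatin, and a median of -0.18 with equal ERCC totals). The 12 of them present in all 6 libraries had -0.23, with 0 called in chromatin. The remaining genes had -0.29 (14 called in chromatin and 2 in nucleoplasm). The 154 of them present in all 6 libraries had -0.45, with 6 and 2 called. Over all genes tested, 21.2% were called in chromatin and 8.47% in nucleoplasm. For these remaining genes equal ERCC totals gave 3 and 61 calls with a median of -1.59, and equal total counts gave a median of 0.17. Over all 33 nested genes and all 26 copies the medians kept their signs under both scalings.

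**Figure D2:**
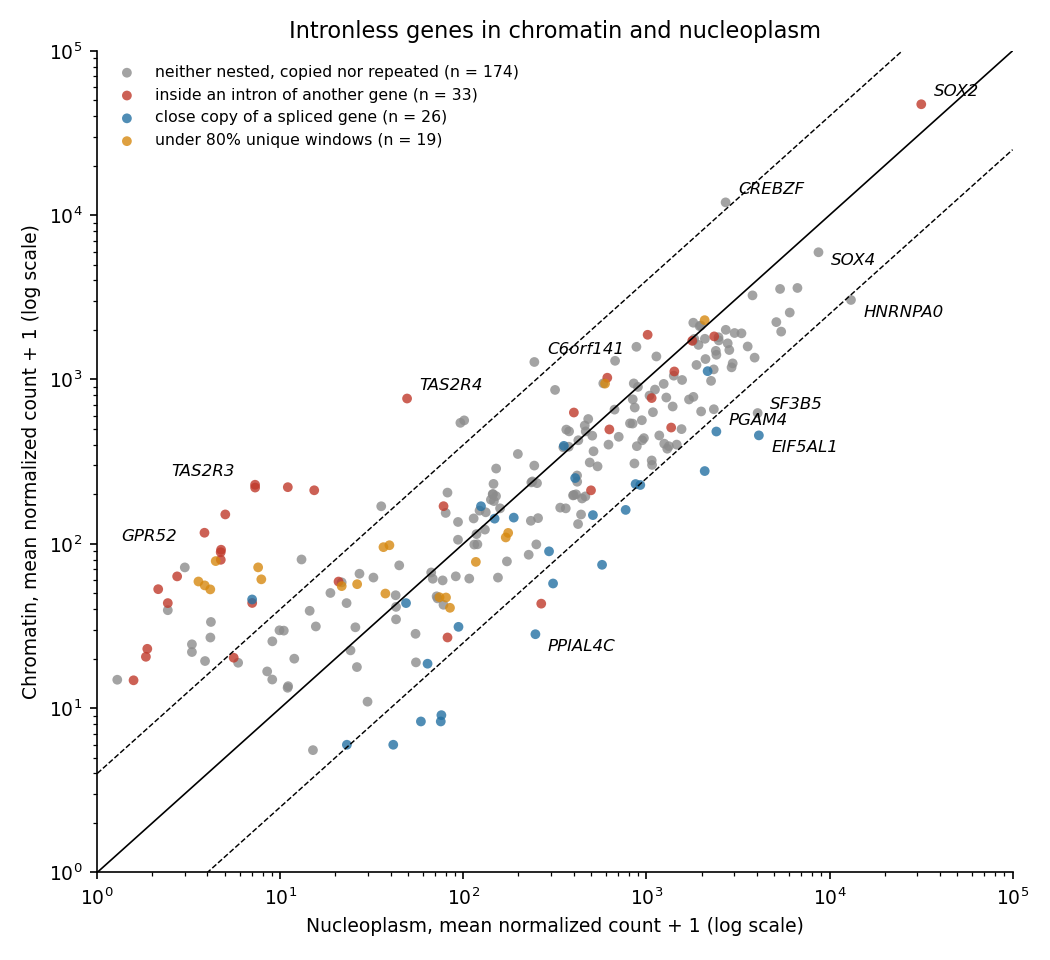
Mean normalized count + 1 of the 252 intronless genes in nucleoplasm (horizontal axis, log scale) and in chromatin (vertical axis, log scale), 3 libraries each, coloured by position and sequence; the solid line marks equal values and the dashed lines 4-fold. Many nested genes (red) lie at the upper left and copies of spliced genes (blue) at the lower right, and SOX2, at 47256 and 31700.4, stands above all others.

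The genes furthest toward chromatin were nested. TAS2R3, a bitter taste receptor at chr7:141764097-141765197 inside SSBP1, had 236, 277 and 169 normalized counts in chromatin and 4.39, 5.17 and 9.29 in nucleoplasm. Its log2 fold change was 5.00 ± 0.28 (SE; adjusted p = 3.3e-07), and every chromatin value stood far above every nucleoplasm value. TAS2R4, a taste receptor inside the same host gene, had 728, 940.3 and 625 against 53.5, 45.6 and 45.6 (3.94 ± 0.15, adjusted p = 3.7e-08). SSBP1, a mitochondrial single-strand DNA-binding protein, went the other way (-0.76 ± 0.05), with 2261 ± 42.7 in chromatin and 3844 ± 172 in nucleoplasm (SD, n = 3).

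A second cluster of 7 taste receptors lay inside PRH1 on chromosome 12: TAS2R13, TAS2R19, TAS2R20, TAS2R30, TAS2R31, TAS2R46 and TAS2R50, with log2 fold changes of 4.08 to 4.93. TAS2R30, the highest, had 188, 269 and 199.8 against 4.39, 6.03 and 8.45. PRH1, a locus of salivary proline-rich proteins, was itself called in chromatin (2.31 ± 0.11), at a lower value than each of these receptors. All 50-base windows of these receptors also occur on alternate contigs of the assembly. Taste receptors sense bitter compounds on taste cells, and all 9 that passed the filter were called in chromatin. Of the 9, 1 (TAS2R4) had at least 10 normalized counts in all 6 libraries, so their count follows in part from the filter.

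Nested genes other than taste receptors included further high values. GPR52, an orphan G protein-coupled receptor inside RABGAP1L, had 119.96, 126 and 100.99 against 1.76, 2.58 and 4.22 (4.96 ± 0.26, adjusted p = 2.2e-07), while RABGAP1L was at 2038 ± 169.6 in chromatin and 1734 ± 95.05 in nucleoplasm (0.23 ± 0.07). PAPOLB, a poly(A) polymerase of the testis inside RADIL, had 134, 172 and 144 against 2.63, 5.17 and 4.22 (4.94 ± 0.23), and RADIL had -1.17 ± 0.05. In both nested genes the chromatin libraries stood far apart from the nucleoplasm libraries. EID3, an inhibitor of EP300, had 234, 267 and 159 against 5.27, 11.2 and 13.5 (4.38 ± 0.33), whereas TXNRD1 around it, the cytosolic thioredoxin reductase, was higher in nucleoplasm (-1.19 ± 0.05). RPA4, a relative of the replication protein RPA2 inside DIAPH2, had 176, 233 and 223 against 13.2, 12.9 and 16.9 (3.79 ± 0.16), and DIAPH2 had 0.72 ± 0.06. KCNA6, a potassium channel subunit inside GALNT8, had 39.6, 56.4 and 31.8 against 7.02, 3.44 and 7.604 (2.65 ± 0.32).

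At the lowest levels the ratio is poorly fixed, and these intervals cover counting error only. TSSK1B, a testis kinase inside MCC, had 51 reads in chromatin and 3 in nucleoplasm, a ratio of 22.8 (95% exact interval 7.36 to 114). RNF133, a ubiquitin ligase inside CADPS2, had 36 reads in chromatin and 2 in nucleoplasm, a ratio of 24.1 (95% exact interval 6.21 to 207). OR2D2, an olfactory receptor inside a long noncoding gene, had 57 reads in chromatin and 3 in nucleoplasm, a ratio of 25.4 (95% exact interval 8.28 to 127). All 3 were called in chromatin, and their hosts had -0.68 ± 0.05, -0.34 ± 0.08 and 2.93 ± 0.26 in the same order.

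In 21 nested genes the protein-coding host was tested too, and in 20 of them the nested gene had the higher log2 fold change. The median was 4.08 for the nested genes and -0.58 for their 14 hosts, of which 1, PRH1, was called in chromatin. Of the 21, 13 had passed the filter through chromatin alone and so had to be high there. Of the 7 with at least 10 normalized counts in all 6 libraries, 6 were above their host, with medians of 0.74 for the nested genes and -0.49 for the hosts, and 2 (TAS2R4 and RPA4) were called in chromatin. The exception was CSNK2A3 (-1.42) inside GALNT18 (-0.49), a copy of the kinase gene CSNK2A1 (-0.75). Among the 6 above their host, PIGM (0.74) and PABIR1 (0.65) had hosts of low count whose values are poorly fixed. These were KCNJ10, with a mean of 18.0 normalized counts in chromatin (0.17 ± 0.31), and PIP5K1B, with 11.4 (0.08 ± 0.48). Of the 17 nested genes called in chromatin, 16 had a tested host. In 8 of these the host was itself called in chromatin (PRH1 for 7), and in 6 the host was below 0. The 9 nested genes with a noncoding host had a median of -0.05, with 1 called in chromatin. A host's value counts reads over its exons, and a nested gene's value counts reads over a stretch that the host's unspliced RNA also covers. The part of host precursor RNA in the values of nested genes was not tested. Not all nested genes were on the chromatin side. CHMP1B, a subunit of the ESCRT-III membrane scission machinery inside GNAL, had 1249, 1011 and 1091 against 1389, 1476 and 1392 (-0.35 ± 0.08, and 0.11 with equal total counts).

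**Figure D3:**
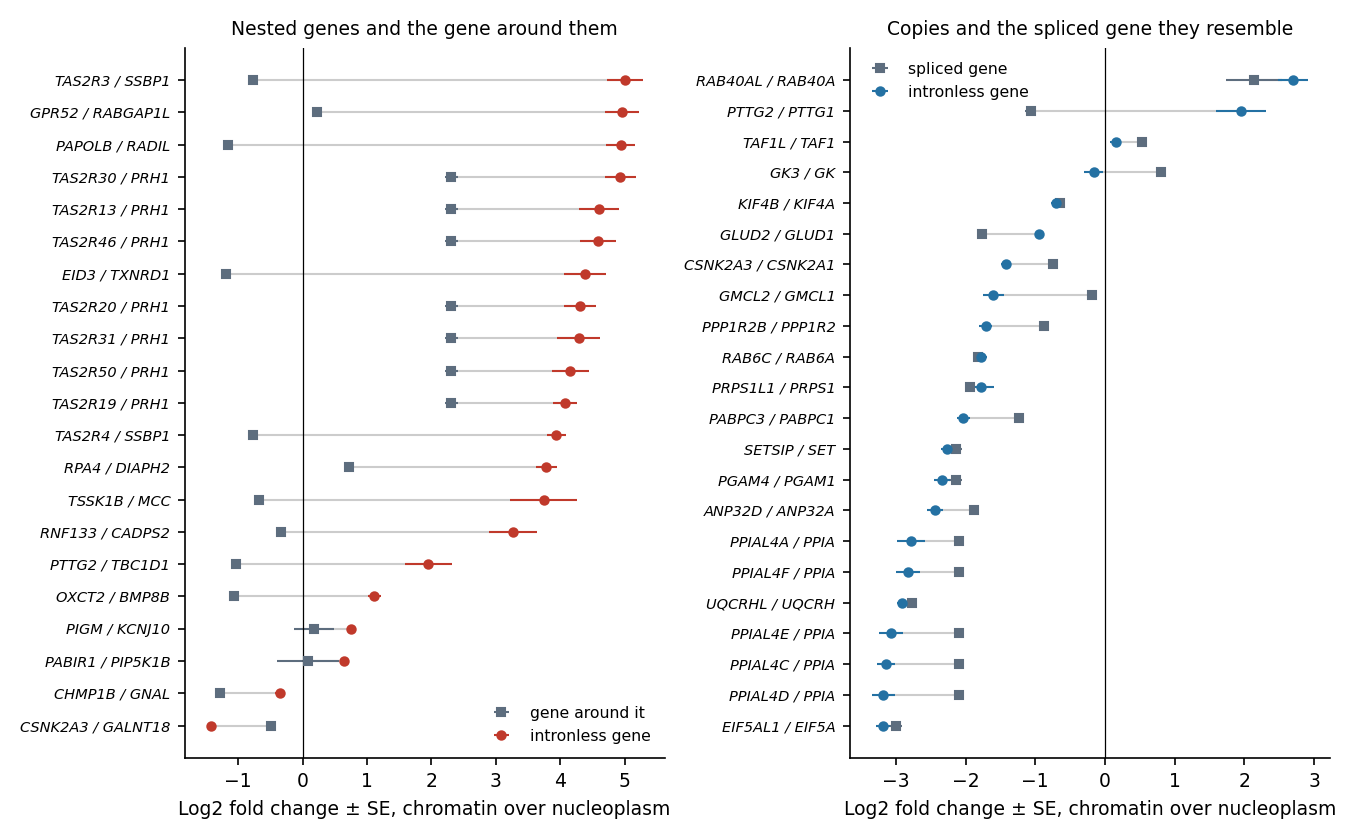
Log2 fold change of chromatin over nucleoplasm (horizontal axes, ± SE from 6 libraries) for 21 nested genes and the gene around each (left) and for 22 copies and the spliced gene each resembles (right). On the left, 20 of 21 circles lie right of their squares, 13 of the 21 genes having passed the filter through chromatin alone; on the right, 20 of 22 circles lie on the same side of 0 as their squares, the exceptions being PTTG2 and GK3.

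Sequence before the start varied among the genes. RefSeq promoters (GRCh38.p14) were matched by symbol for 195 of the 252 genes. The dinucleotide CG, which reads alike on both strands, was counted in the 250 bases before the start. The median was 18 per gene beside 11 over 27305 promoters, and it was 3 in 29 genes called in chromatin, 3 in 7 called in nucleoplasm and 20 in 159 not called. At least 10 pairs stood before 74.4% of the matched genes, 31.0% of those called in chromatin and 51.9% of all promoters. Of the 38 genes called in chromatin, 28 had passed the filter through chromatin alone. A promoter at the median of the matched genes, that of SF3B5 with 18 pairs, and one with few, that of the nested GPR52 with 3, are shown, with capitals marking each CG.
SF3B5: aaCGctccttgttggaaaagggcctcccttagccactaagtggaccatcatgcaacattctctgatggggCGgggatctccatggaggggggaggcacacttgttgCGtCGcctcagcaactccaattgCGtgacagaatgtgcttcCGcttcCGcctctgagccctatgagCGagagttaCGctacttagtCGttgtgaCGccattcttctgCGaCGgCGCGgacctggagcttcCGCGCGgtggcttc
GPR52: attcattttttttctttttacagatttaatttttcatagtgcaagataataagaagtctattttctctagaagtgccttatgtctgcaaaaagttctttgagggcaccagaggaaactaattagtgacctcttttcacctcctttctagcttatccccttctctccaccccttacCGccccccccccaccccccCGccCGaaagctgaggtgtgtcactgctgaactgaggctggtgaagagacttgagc
These are chr6:144095574-144095823 (minus strand) and chr1:174447714-174447963 (plus strand), the latter within RABGAP1L. HNRNPA0 had 31 pairs, TAS2R30 3, TAS2R3 2, and PAPOLB, although nested, 18.

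A family called in chromatin throughout was FOXD4, forkhead transcription factors in duplicated stretches of chromosomes 2 and 9. All 6 genes that passed (FOXD4, FOXD4L1, FOXD4L3, FOXD4L4, FOXD4L5 and FOXD4L6) were called, with log2 fold changes of 2.96 to 4.16. None of the 6 had 10 normalized counts in all libraries, and 5 had passed the filter through chromatin alone, so their count follows in part from the filter. Among all genes tested, 21.2% were called in chromatin. These 6 are also the 6 genes called in chromatin in the repeated set above. FOXD4L5 had 78.03, 70.9 and 83.4 against 3.51, 2.58 and 4.22, and FOXD4 had 60.6, 52.8 and 65.9 against 5.27, 8.61 and 6.76. For 5 of the 6, a ZNG1 gene lay 2420 to 3105 bases upstream on the same strand, and those neighbours (ZNG1A, ZNG1B, ZNG1C, ZNG1E and ZNG1F) had 2.13 to 2.56. The part of RNA that runs on from them was not tested. The first 120 coding bases of 3 of the genes show how alike they are; capitals mark the 4 positions at which the 6 genes are not all the same.
FOXD4: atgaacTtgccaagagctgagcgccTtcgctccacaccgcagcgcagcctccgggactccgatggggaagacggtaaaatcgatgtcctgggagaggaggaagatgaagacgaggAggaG
FOXD4L3: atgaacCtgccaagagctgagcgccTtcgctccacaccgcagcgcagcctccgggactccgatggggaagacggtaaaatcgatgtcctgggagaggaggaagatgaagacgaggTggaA
FOXD4L5: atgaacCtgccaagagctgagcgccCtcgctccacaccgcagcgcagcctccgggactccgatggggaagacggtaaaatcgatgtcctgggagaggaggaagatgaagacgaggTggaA
On hg38 these are chr9:118000-118119 (minus strand), chr9:68302952-68303071 (plus strand) and chr9:65284258-65284377 (minus strand), each in the single coding exon. Over the whole coding sequence FOXD4L3 and FOXD4L6 differed at 2 of 1251 bases. Between 4.43% (FOXD4L3) and 41.0% (FOXD4) of their windows were unique, so reads can be split among them and the 6 values are not independent.

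Of the 174 genes neither nested, copied nor repeated, 14 were called in chromatin. The most abundant was CREBZF, a bZIP protein that binds HCFC1, with 11658, 11818 and 12368 normalized counts in chromatin and 2618, 2707 and 2791 in nucleoplasm (2.14 ± 0.05, adjusted p = 8.8e-09). C6orf141, whose function is not well known, had 1259, 1285 and 1283 against 255, 240.2 and 234 (2.39 ± 0.06). The replicates of both genes lay close together and the fractions far apart. The rows of these genes span 25129 and 11560 bases, against coding transcripts of 7140 and 1428, so their values cover more than the intronless transcript.

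PGBD4, derived from a piggyBac transposase, had 577, 536 and 575 against 91.3, 99.00 and 109.8 (2.48 ± 0.09). IGIP, which encodes a small secreted inducer of IgA, had 572, 582 and 475 against 94.8, 104 and 87.02 (2.50 ± 0.11), and PURA, 318 bases upstream on the same strand, had 0.42 ± 0.05. Together with TAS2R4, RPA4, DCAF4L1 and SLC10A5, these are the 8 genes called in chromatin that had at least 10 normalized counts in all libraries. OR9A2, an olfactory receptor with no gene around it, had 61.7, 92.5 and 58.2 against 1.76, 2.58 and 1.69 (4.56 ± 0.26), a very low level in nucleoplasm. LENEP, a lens epithelial protein, had 32.6, 42.03 and 40.6 against 1.76, 0 and 2.53 (4.20 ± 0.46), while FLAD1, 475 bases upstream, had -0.63 ± 0.07. TSPYL6 had 36 reads in chromatin and 1 in nucleoplasm, a ratio of 48.2 (95% exact interval 8.12 to 1956).

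On the nucleoplasm side, most genes called were copies of spliced genes. Counting the 3 nested ones too, 29 genes were copies, and 13 of them were called in nucleoplasm (44.8%, against 8.47% of all genes tested). A log2 fold change below 0 was found in 25 copies, and the median of all genes tested was -0.02. Of the 22 copies with at least 10 normalized counts in all 6 libraries, 9 were called in nucleoplasm, against 8.7% of all such genes. EIF5AL1, a copy of the translation factor gene EIF5A, had 468, 378 and 520.3 normalized counts in chromatin and 4009.7, 4089.98 and 4233 in nucleoplasm (-3.18 ± 0.11, adjusted p = 2.1e-08). EIF5A was at 3712 ± 413 and 29551 ± 1375 (-3.00 ± 0.08). UQCRHL, a copy of UQCRH of respiratory complex III, had 297, 251 and 279.9 against 2073, 1982 and 2185 (-2.91 ± 0.07), beside -2.77 ± 0.07 for UQCRH. PGAM4, a copy of the glycolytic PGAM1, had 533, 389 and 520.3 against 2484, 2291 and 2451 (-2.34 ± 0.11), beside -2.14 ± 0.09 for PGAM1. In each of these copies all chromatin values lay below all nucleoplasm values, and in 90.6% of all genes tested the fractions did not overlap.

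The coding starts show how closely copy and spliced gene match. Each pair below gives the first 120 coding bases, with capitals where the pair differs.
EIF5AL1: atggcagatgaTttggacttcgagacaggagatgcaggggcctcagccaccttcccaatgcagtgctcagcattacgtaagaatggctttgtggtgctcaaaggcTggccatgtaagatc
EIF5A: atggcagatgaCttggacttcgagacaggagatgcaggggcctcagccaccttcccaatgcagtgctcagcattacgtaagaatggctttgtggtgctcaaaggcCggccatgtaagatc
PGAM4: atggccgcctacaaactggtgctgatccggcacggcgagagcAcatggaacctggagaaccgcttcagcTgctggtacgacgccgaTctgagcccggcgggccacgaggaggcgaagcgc
PGAM1: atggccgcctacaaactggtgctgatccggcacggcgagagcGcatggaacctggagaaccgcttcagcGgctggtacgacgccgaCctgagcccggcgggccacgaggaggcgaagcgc
PPIAL4C: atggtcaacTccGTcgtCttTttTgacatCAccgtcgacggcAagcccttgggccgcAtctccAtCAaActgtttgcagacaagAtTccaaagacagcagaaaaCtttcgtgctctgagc
PPIA: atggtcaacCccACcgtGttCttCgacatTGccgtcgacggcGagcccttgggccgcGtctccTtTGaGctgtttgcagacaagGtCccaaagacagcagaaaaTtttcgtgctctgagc
The copies lie on hg38 at chr10:79512650-79512769 (plus strand), chrX:77969519-77969638 (minus strand) and chr1:149583898-149584017 (plus strand), each in 1 coding exon. The pairs differ at 2, 3 and 17 of these bases. Over the whole coding sequence EIF5AL1 differs from EIF5A at 5 of 462 and PGAM4 from PGAM1 at 13 of 762. Of the 50-base windows, 40.9% in EIF5AL1 and 57.3% in PGAM4 were unique, against 94.0% in UQCRHL and 93.5% in NACA2.

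The largest family of copies was PPIAL4, which resembles PPIA, the cyclophilin that isomerises prolines in folding proteins. All 5 that passed (PPIAL4A, PPIAL4C, PPIAL4D, PPIAL4E and PPIAL4F) were called in nucleoplasm, with -3.18 to -2.79, against 8.47% of all genes tested. Of the 5, 1 (PPIAL4C) had at least 10 normalized counts in all 6 libraries, so their count follows in part from the filter. PPIAL4C, the most abundant, had 25.6, 24.02 and 31.8 against 243, 243 and 253 (-3.15 ± 0.13), while PPIA was at 7705 ± 715 and 32777 ± 853 (-2.09 ± 0.07). No window of PPIAL4E or PPIAL4F was unique, and PPIAL4D and PPIAL4F had the same value in each chromatin library, so how reads were split among these genes is uncertain. NACA2, a copy of the nascent-chain factor gene NACA, had 73.4, 75.7 and 71.4 against 557, 569.9 and 586 (-2.94 ± 0.07). ATP5MGL, a copy of the ATP synthase gene ATP5MG nested in CYB5R3, had 53.6, 32.4 and 40.6 against 274, 271 and 251 (-2.65 ± 0.17). ANP32D, SETSIP and PABPC3, copies of ANP32A, SET and PABPC1, had -2.44, -2.27 and -2.03.

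In 22 copies the spliced gene was tested too, and in 20 the signs matched. The median was -1.92 for the 29 copies and -1.496 for the 18 spliced genes, of which 5 were called in nucleoplasm. Pearson's r of the log2 fold changes over the 22 pairs was 0.817 and Spearman's rho 0.868, given as a description, because the pairs share libraries and in part reads, and 5 of them share PPIA. PTTG2 (1.95), nested in TBC1D1, differed in sign from PTTG1 (-1.06), and GK3 (-0.16) from GK (0.81). RAB40AL was the 1 copy called in chromatin (2.70 ± 0.22), beside 2.14 ± 0.40 for RAB40A. The copy had the lower chromatin count in 21 of the 22 pairs. The part of reads from the spliced gene in a copy's value was not tested.

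Apart from copies, 2 genes were called in nucleoplasm. SF3B5, a small subunit of the SF3B splicing complex, had 671, 507 and 693 normalized counts in chromatin and 4148, 3847 and 4151 in nucleoplasm (-2.71 ± 0.11, adjusted p = 5.5e-08), and 100% of its windows were unique. HNRNPA0, an RNA-binding protein of the hnRNP A/B family, had 3170.2, 2808 and 3154 against 12735, 13223 and 13319.9 (-2.11 ± 0.06, adjusted p = 1.2e-08), with 99.9% unique windows. Of these 2 genes, 1 was still called with equal total counts, SF3B5 (-2.25). Both genes stand alone, with no same-strand gene around or just before them. Their fractions did not overlap, as in 90.6% of all genes tested.

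By normalized count per kb, the leading genes were SOX2, SF3B5, PCBP1, SOX4, RNF26 and SEPHS2. SOX2, a transcription factor of stem cells and neural progenitors, had 46930, 51814 and 43022 normalized counts in chromatin and 30969, 32589.8 and 31542 in nucleoplasm, or 18812 and 12619.6 per kb. It alone made up 24.9% ± 2.89 of the normalized counts of the 252 genes in chromatin and 12.97% ± 0.196 in nucleoplasm (SD, n = 3). Its log2 fold change was 0.57 ± 0.07 (adjusted p = 6.8e-05), and -0.75 with equal ERCC totals. Without SOX2 the class took 0.296% ± 0.0118 of gene reads in chromatin and 0.32% ± 0.00674 in nucleoplasm. SOX2 is nested in the noncoding SOX2-OT, which had 1.06 ± 0.18.

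The others of these 6 were higher in nucleoplasm. PCBP1, a poly(C)-binding regulator of mRNA, had 1676, 1112 and 1279.99 against 3909.6, 3879 and 3903 (-1.54 ± 0.13). RNF26, a ubiquitin ligase of the endoplasmic reticulum, had 2169, 1628 and 2063 against 5665, 5137 and 5529 (-1.49 ± 0.10), and SEPHS2, which makes selenophosphate for selenoproteins, had -1.18 ± 0.09. SOX4, a developmental SOX factor, had 6140.1, 5218 and 6459 against 8363, 8919 and 8824 (-0.56 ± 0.08, adjusted p = 1.5e-04). With equal total counts the difference of SOX4 no longer passed the test (-0.092, adjusted p = 0.24, limma). In none of the 6 genes did the fractions overlap, which held for 90.6% of all genes tested.

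**Figure D4:**
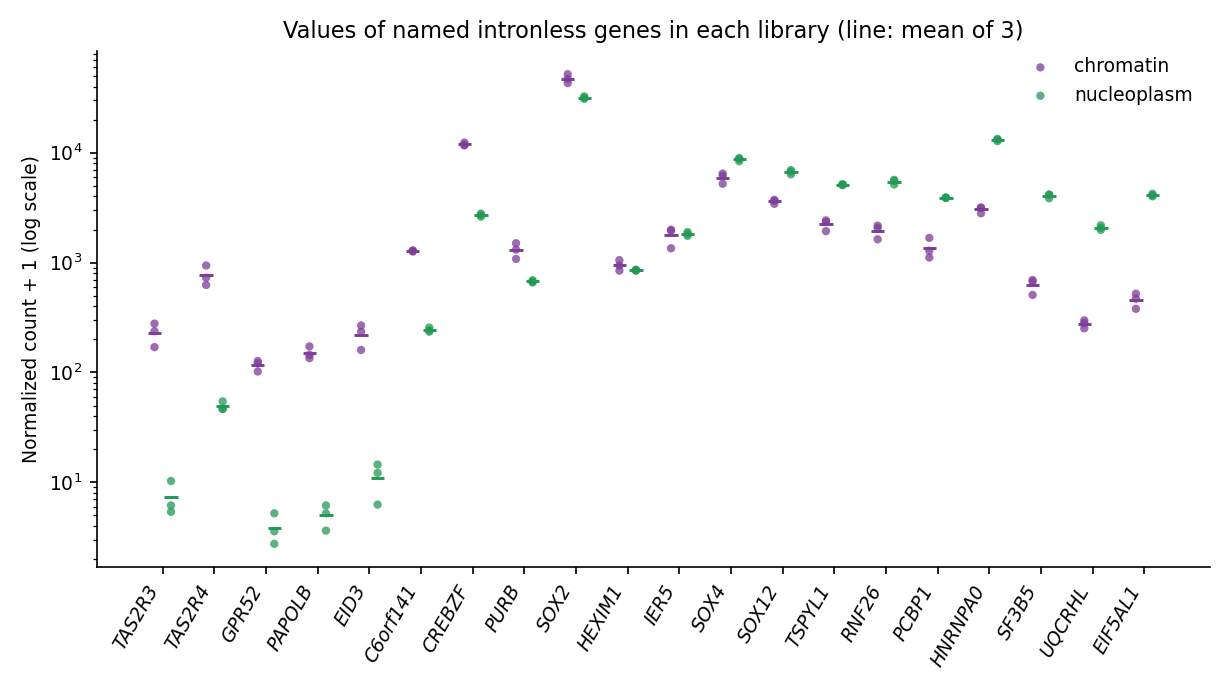
Normalized count + 1 (vertical axis, log scale) of 20 named intronless genes in each of the 3 chromatin and 3 nucleoplasm libraries; points are libraries and lines the mean of 3. From TAS2R3 to SOX2 chromatin is higher, HEXIM1 and IER5 overlap, and from SOX4 to EIF5AL1 nucleoplasm is higher; PURB, SOX2 and HEXIM1 turned negative with equal ERCC totals and IER5 positive with equal total counts.

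By role, the counts at any fold in each list below stand beside 44.2% of all genes tested higher in chromatin and 45.2% higher in nucleoplasm. A list of transcription factors outside the zinc fingers held 28 of the 252 genes. It holds FOXD4 but not the other 5 FOXD4 genes or CREBZF, all called in chromatin. Of the 28, 6 were higher in chromatin, 12 were higher in nucleoplasm and 10 did not pass the test (median -0.14, and 0.32 with equal total counts). SOX12 had 3661, 3426 and 3717 against 6353, 6741 and 6939.6 (-0.89 ± 0.05), whereas SOX1, nested in SOX1-OT, had 0.88 ± 0.07. Of the C/EBP factors, which drive differentiation and acute responses, CEBPB (-0.66 ± 0.07) and CEBPD (-0.84 ± 0.10) were higher in nucleoplasm. CEBPA had 462, 408 and 575 against 379.99, 517 and 498, so its fractions overlapped (0.05 ± 0.15, and -1.27 with equal ERCC totals). The fractions of JUNB, IER5 and IER5L, growth-induced immediate-early genes, overlapped too (-0.16 ± 0.13, -0.07 ± 0.14 and -0.04 ± 0.21), and their signs turned with equal total counts. FOXD1 was the lowest of the list (-1.18 ± 0.07) and FOXD4 its highest (2.96 ± 0.22), while the 5 FOXD4 genes outside the list were higher.

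G protein-coupled receptors numbered 27 of 250 with a row. Of these, 13 were called in chromatin and 4 were higher in nucleoplasm at any fold, with a median of 1.53 (0.30 with equal ERCC totals). These were 48.1% called in chromatin, against 21.2% of all genes, but 13 of the receptors had passed the filter through chromatin alone. Of the 14 present at 10 normalized counts in all 6 libraries, 1 (TAS2R4) was called. The 11 nested receptors were all called, and the 16 others held 2 called in chromatin, OR9A2 and the nucleotide receptor P2RY4 (2.93 ± 0.48). The 6 frizzled receptors, which bind Wnt ligands, lay between -0.63 and 0.38. FZD2 had 432, 382 and 386 against 619, 640.5 and 599 (-0.63 ± 0.07) and FZD7 had -0.53 ± 0.07, which no longer passed the test with equal total counts (-0.065, adjusted p = 0.41, limma). GPR27, an orphan receptor, was the lowest of the list, with 87.3, 76.9 and 90.02 against 224, 232 and 223 (-1.41 ± 0.09).

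A list of proteins of RNA metabolism and gene expression, which does not hold PAPOLB, SF3B5 or PCBP1, had 20 genes, with 4 higher in chromatin, 10 higher in nucleoplasm and 6 not past the test (median -0.15, and 0.31 with equal total counts). PURB, which binds single-stranded nucleic acids, had 1500.1, 1311 and 1079 against 671, 689.6 and 658 (0.93 ± 0.11, and -0.39 with equal ERCC totals). HEXIM1, the inhibitor of the elongation kinase P-TEFb, had 1052, 844 and 939 against 860.03, 852 and 842 (0.14 ± 0.08, adjusted p = 0.12, and -1.18 with equal ERCC totals). The value of HEXIM1 passed the test without chromatin replicate 2 (0.22), in DESeq2 (0.24) and with equal total counts (0.61). As a negative value it also passed with equal ERCC totals. CSTF2T, a cleavage stimulation factor subunit, had -0.25 ± 0.06 (0.22 with equal total counts), and MARS2, the mitochondrial methionyl-tRNA synthetase, -0.05 ± 0.07 (0.41 with equal total counts). RBMXL2, an RNA-binding protein of germ cells, was the highest of this list (2.90 ± 0.25), from 61 reads in chromatin and 8 in nucleoplasm.

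The MAGE, PNMA and TSPYL families numbered 13, with 2 higher in chromatin and 9 higher in nucleoplasm (median -0.87). MAGEF1 had 606, 429.9 and 457 against 1616, 1539 and 1506 (-1.66 ± 0.12), and TSPYL1, a relative of nucleosome assembly proteins, had 2342, 1931 and 2422 against 5184, 5099.8 and 5078 (-1.20 ± 0.08). Of 6 zinc finger and BTB proteins, 4 were higher in nucleoplasm and 1 in chromatin. THAP11, which acts with HCFC1 in stem cells, was the lowest (-1.83 ± 0.09) and ZXDA the highest (0.66 ± 0.08, and -0.66 with equal ERCC totals).

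Small GTPases and signalling proteins numbered 12 (5 higher in chromatin and 6 in nucleoplasm), from RAB6C (-1.77 ± 0.08), a copy of RAB6A, to TSSK1B. Among 11 ubiquitin ligase adaptors and proteases, 3 were higher in chromatin and 7 in nucleoplasm, from RNF26 to RNF133. The 8 chaperones had a median of -2.80, but 5 of them were PPIAL4 copies. HSPA6, a heat-inducible HSP70, had 65.2, 48.04 and 60.4 against 17.6, 24.97 and 16.9 (1.51 ± 0.20), with 43.9% unique windows. With equal ERCC totals its difference no longer passed the test (0.23, adjusted p = 0.46, limma). Of 4 glycosyl- and sulphotransferases, 3 were higher in chromatin, the highest being B3GALT4, which builds gangliosides (1.01 ± 0.18, and -0.26 with equal ERCC totals), and MGAT2, which branches N-glycans, was higher in nucleoplasm (-1.31 ± 0.08).

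The 3 protocadherins, cell adhesion molecules, lay between PCDHB8 (0.39 ± 0.21) and PCDHB13 (1.11 ± 0.16), both negative with equal ERCC totals (-0.90 and -0.18). With the main scaling, PCDHB8 passed the test without chromatin replicate 1 (0.59) and not with all 6 libraries. With all 6 it passed with equal total counts (0.85) and, as a negative value, with equal ERCC totals. Of 7 channel, junction and adhesion proteins, 1 was higher in chromatin (KCNA6) and 3 in nucleoplasm, with TMEM158 the lowest (-1.69 ± 0.11).

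**Figure D5:**
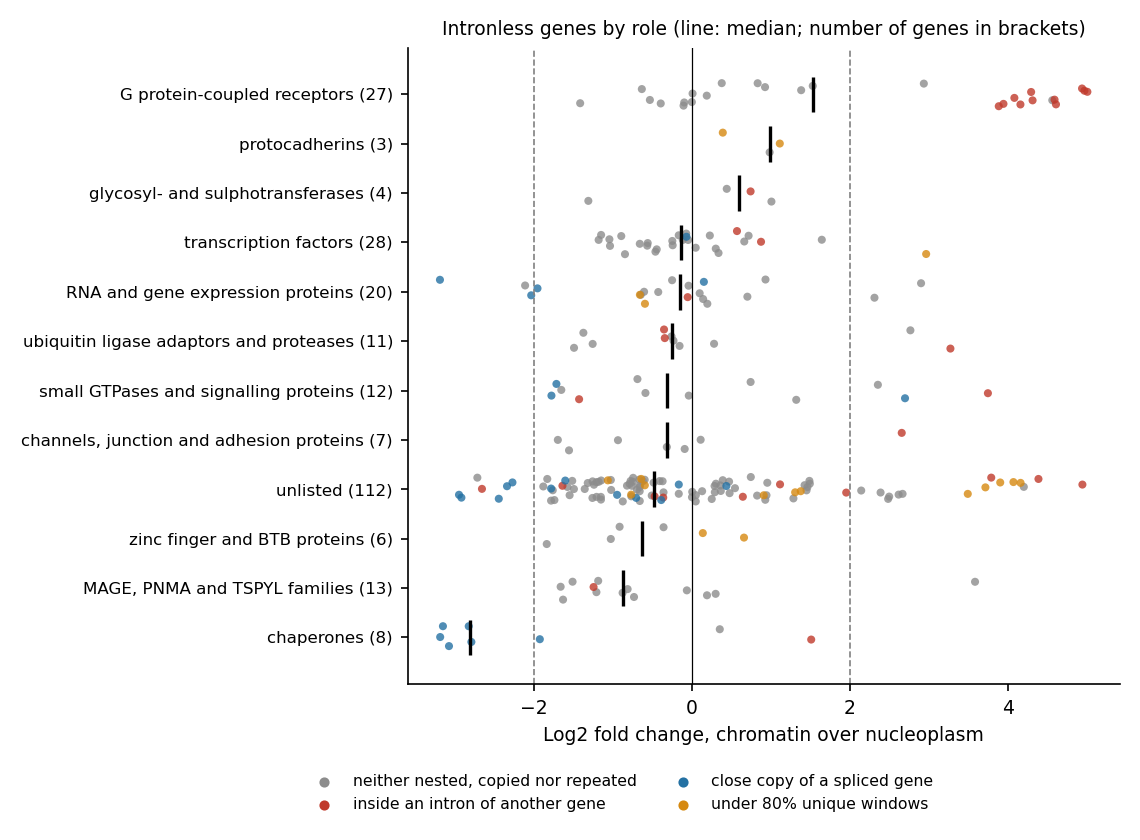
Log2 fold change of chromatin over nucleoplasm (horizontal axis) of the intronless genes in each role list with at least 3 of the 252 genes and of the 112 genes in no list; points are genes, coloured by position and sequence, and short lines are medians. Nested genes (red) fill the chromatin end of the receptor list and copies (blue) the nucleoplasm end of the chaperone list; the medians of the protocadherins and glycosyltransferases were negative with equal ERCC totals.

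Of 27 genes often named as intronless, 16 passed. Another 6 (PURA, ARF6, FZD5, IRS4, TAF7 and RBMXL1) have an intron in an annotated protein-coding transcript, and 5 (RRS1, RHOB, SOX11, NDN and KTI12) were not tested. All 16 lay within 4-fold. At any fold 1 (PURB) was higher in chromatin, 9 were higher in nucleoplasm and 6 did not pass the test, with a range from -1.20 (TSPYL1) to 0.93 (PURB). Over all genes tested, 44.2% were higher in chromatin and 45.2% in nucleoplasm.

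Level and promoter composition varied with the fraction difference. The lowest tercile by mean level (median 36.2 normalized counts) had 28 calls in chromatin and 4 in nucleoplasm, with a median log2 fold change of 1.00, and the highest tercile (median 1443) had 2 and 5, with -0.66. Of the 84 genes in the lowest tercile, 32 had passed the filter through chromatin alone. Of its 38 genes present in all 6 libraries, 1 was called in chromatin. By promoter CpG, observed over expected, the lowest tercile of the matched genes had 23 and 4 calls (median 1.11) and the highest tercile 1 and 2 (-0.44). In the lowest CpG tercile, 22 of the 65 genes had passed through chromatin alone. Of its 36 genes present in all 6 libraries, 3 were called in chromatin. For comparison, 21.2% of all genes tested were called in chromatin and 8.47% in nucleoplasm. With at least 10 normalized counts in all 6 libraries these shares were 11.4% and 8.7%. All genes tested were not split by level or promoter CpG, so whether these orders are particular to the class was not tested. The part of the filter in these 2 orders was not tested. Spearman's rho with the log2 fold change was -0.44 for mean level, -0.36 for promoter CpG (n = 195), 0.15 for transcript length and -0.09 for GC content (n = 252). In genes with at least 10 normalized counts in all 6 libraries it was -0.27 for level (n = 203) and -0.12 for promoter CpG (n = 157). In the 174 genes neither nested, copied nor repeated it was -0.48 for level and -0.23 for CpG (n = 135). These are descriptions over genes that share libraries.

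Of the 252 genes, 42 started within 5 kb downstream of a same-strand gene, and 10 of them were called in chromatin (23.8%). Of the 30 downstream genes present in all 6 libraries, 2 were called in chromatin, against 11.4% of all such genes. Another 168 stood alone (median -0.59), with 11 called in chromatin (6.55%) and 13 in nucleoplasm (7.74%). These shares stand beside 21.2% and 8.47% of all genes tested. Of the 10 downstream genes called in chromatin, 9 had a tested neighbour, 5 of them ZNG1 genes. GARIN4 (2.67 ± 0.36) followed ATF3, a stress-induced transcription factor gene, which had -0.50 ± 0.06.

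Long reads gave a second readout of chromatin. In TPM, 190 of the 252 genes (75.4%) were above 0 in both libraries, 33 in 1 and 29 in neither, against 87.7% of 12003 intron-containing genes in both. By set, these were 22 of 33 nested genes, 21 of 26 copies, 12 of 19 repeated genes and 135 of the other 174. SOX2 had 849.7 and 179 TPM in the libraries, which lay far apart. PGAM4 had 140.4 and 197, NACA2 151 and 165, SF3B5 54.4 and 77.3 and SOX4 54.5 and 33.8 TPM, with closer values. TAS2R3 and TAS2R4, far to the chromatin side in short reads, had 1.28 and 2.51 and 4.52 and 2.57 TPM, and GPR52 was listed at 0 and 2.65 TPM. Over the 190 genes Spearman's rho of long-read TPM with the short-read chromatin count per kb was 0.71, and 0.85 between the long-read libraries. With 1 fraction in long reads, no comparison of fractions was possible.

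Single-exon genes carry no splice site that could orient a long read. For 7 genes (TLNRD1, NOG, NACA2, P2RY1, HNRNPA0, TUSC1 and CSNK2A3) the long-read assembly also held a transcript of a matching span on the opposite strand. NACA2 had 70.7 and 103 TPM there, beside 151 and 165 on its own strand, and HNRNPA0 had 7.73 and 4.44 beside 12.02 and 9.19. TLNRD1, a talin rod domain protein, was listed at 0 on its own strand and at 9.04 and 4.66 on the other. The short-read libraries were directional.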

How the data were processed

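RNA from HAP1 nuclei was sequenced in 8 libraries. They were grouped by title, since the fraction field reads chromatin for the nucleoplasm libraries as well. For short reads (50 bases, directional), the authors used HISAT2 2.1.0 on hg38 with ERCC sequences, merged StringTie assemblies of both fractions and derived gene counts from coverage. The deposited normalized signal is that count scaled per library by a DESeq2 size factor. Division by the smallest value above 0 of each library gave whole reads for 100% of values (within 0.01), and a recovered read remains an estimate because it stems from coverage. The long-read table deposited by the authors holds TPM per transcript (minimap2, StringTie), which keeps no depth. The number of unmapped value columns was 0.

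Genes with 10 normalized counts in 3 libraries and a span over 200 bases were tested with limma 3.58.1 (R 4.3.3; trend on log2(value + 1), Benjamini-Hochberg adjustment) and called at an adjusted p under 0.05 and over 4-fold. The code was tested on simulated data. Recovered reads gave 5675 and 2167 calls over all genes in edgeR 4.0.16 and 5846 and 1961 in DESeq2 1.42.0, in chromatin and nucleoplasm. Copies were found with minimap2 2.31, with limits of 300 bases and 90% identity set after the values were seen.

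The genes named by rule were the 6 with the most counts per kb, the 6 largest changes in each direction with a mean of at least 50, 27 listed genes and the extremes of each role list. Further genes were named after their values were seen. The class, role lists and listed genes were chosen with earlier results of these data known. Other pseudocounts, filters, scalings, span matches and left-out libraries were tried as alternatives.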

Additional observations from a re-analysis of the deposited data

How the results depend on the processing

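The calls kept within 1.5 times of 38 in chromatin and 15 in nucleoplasm under edgeR, DESeq2, both other pseudocounts, TMM scaling, equal total counts, no filter and a stricter span match. Chromatin calls fell to 12 with a mean of at least 50, 24 with equal ERCC totals, 21 without nested or overlapping genes and 8 with 10 counts in all 6 libraries. Nucleoplasm calls were 87 with equal ERCC totals, 67 at a 2-fold minimum, 8 without genes under 80% unique windows and 2 without copies. The median of -0.24 moved to -0.54 with a mean of at least 50, 0.36 with no filter, -0.13 in DESeq2, 0.23 with equal totals, -1.56 with equal ERCC totals, -0.40 without nested or overlapping genes, -0.47 with 10 counts in all libraries and -0.070 without copies. Its difference from the intron-containing genes (0.15) was -0.11, 0.65, -0.014, -0.083 and 0.32 with a mean of at least 50, no filter, no nested or overlapping genes, 10 counts in all libraries and no copies. The cause of these shifts was not tested. The last 2 filters, and one on noncoding transcripts, were chosen after seeing the data.

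Leaving out 1 library gave 38 to 39 calls in chromatin, 14 to 16 in nucleoplasm, a median of -0.28 to -0.18 and a difference of 0.11 to 0.19. Long-read detection (190 genes) was 142 at 1 TPM. Libraries with equal replicate numbers had r of deviations of 0.0533 to 0.0871, and others had -0.0754 to 0.0128. These values were small, but each library was highest with its own number. The main fit did not pair libraries, and a fit with a replicate block gave 38 and 15 calls with a median of -0.24.

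Of 805 values of named genes under alternatives, 23 changed sign. With equal ERCC totals these were PCDHB8 (-0.90), PCDHB13 (-0.18), HEXIM1 (-1.18), CEBPA (-1.27), SOX2 (-0.75), B3GALT4 (-0.26), PURB (-0.39) and ZXDA (-0.66). With equal totals they were CHMP1B (0.11), JUNB (0.30), MARS2 (0.41), IER5 (0.39), IER5L (0.42) and CSTF2T (0.22). DESeq2 turned MARS2 (0.043), IER5 (0.044) and IER5L (0.10), and edgeR IER5L (0.036). Without 1 library CEBPA ranged over -0.089 to 0.16, MARS2 over -0.11 to 2.86e-05, IER5 over -0.17 to 0.11 and IER5L over -0.22 to 0.24. HSPA6 with equal ERCC totals (0.23) and SOX4 and FZD7 with equal totals (-0.092 and -0.065) no longer passed the test. Nucleoplasm counts of a few reads limit the ratios of the lowest genes, and shared reads those of copies.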
